A study of Mus musculus with 16 samples.

Results

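The comparison set 4 livers of unfasted mutant mice against 4 livers of fasted heterozygous mice, 8 of the 16 arrays of the series, chosen by their titles. It addressed how the RNA levels of the mutant liver, without a fast, stood against those of a normal liver that had fasted. The mutants were Mut -/-;TgINS-MCK-Mut and on a normal diet, and the heterozygotes were Mut +/-;TgINS-MCK-Mut and had fasted for 12 hours. Mut (now Mmut) encodes methylmalonyl-CoA mutase. Both groups carried the transgene, which expresses the enzyme from a muscle creatine kinase promoter and so does not supply the liver. All mice were males of 4 months, 1 array was made per liver on the Affymetrix Mouse Gene 1.0 ST array, and genotype and feeding differed together, so a difference here belongs to neither alone. Unfasted heterozygotes and mutants fasted for 8 to 12 hours, also 4 arrays each, are given only as levels beside the comparison.

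Methylmalonyl-CoA mutase converts methylmalonyl-CoA, formed from propionate, odd-chain fatty acids and several amino acids, into succinyl-CoA for the citric acid cycle. A normal liver that fasts takes up fatty acids, and the nuclear receptor PPAR-alpha raises the genes that oxidize them and make ketone bodies. Falling insulin releases the FoxO factors and gluconeogenesis, and silences SREBP-1c, which drives the synthesis of fatty acids. The related factor SREBP-2 drives the synthesis of cholesterol. Amino acid shortage and mitochondrial stress act by another route, through the factor ATF4, and unfolded protein in the endoplasmic reticulum through ATF6 and XBP1.

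Mmut, the targeted gene, read 9.77, 9.78, 10.10 and 9.90 (log2 intensity) on the 4 fasted heterozygous arrays and 8.33, 8.02, 7.87 and 7.94 on the 4 unfasted mutant arrays. The groups did not overlap, and the difference was -1.85 ± 0.11 (SE), adjusted p = 4.91e-07. Transcripts of pancreatic acinar cells stood out on unfasted mutant replicate 1. There Cpa1, a pancreatic carboxypeptidase, read 12.29, against 7.06, 7.13 and 7.05 on the other mutant arrays and 6.84 to 7.22 in fasted heterozygotes. All 17 measured acinar markers were highest on that array, where their summed level divided by their number was 10.58, against 6.47 to 6.59 in fasted heterozygotes. None of the 17 was called, and without that array all 17 were within the margin defined next. The main counts and calls that moved without that array are also given without it, and its part in the other results was not tested. The mutant arrays varied more among themselves, with a median SD over genes of 0.107 against 0.072 in fasted heterozygotes. The hepatocyte markers Alb, Apoa1, Ttr and Trf were bright in both groups. Of 10 hepatocyte markers 8 were within the margin (80.0%, against 87.7% of all genes and 79.6% of those above the median brightness). Of the rest, 1 was called lower and 1 was neither called nor within it. Without mutant replicate 1 or mutant replicate 4, 2 were lower.

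Each of 19938 genes was put through a pair of tests. A gene was called when its mean differed between the groups at an adjusted p under 0.05. It was counted as matching, or within the margin, when the difference was shown to be smaller than 0.5 log2 units (1.41-fold) in either direction, at an adjusted p under 0.05 of its own. A gene that passed neither test was left undecided, since a missed call does not show a match. The margin is wide beside the fast itself, since fasted and unfasted heterozygotes differed by more than 0.5 in only 374 genes (1.88%). A gene within the margin can therefore lie as near to the unfasted as to the fasted level. The unfasted mutant was higher in 1188 genes (5.96% of those tested) and lower in 976 (4.9%), and 17489 genes (87.7%) were within the margin. Of the called genes, 851 were also within the margin, so their differences were small, and counts within the margin below include such genes unless they are said to be without a call. Another 1136 genes (5.70%) were undecided. Among the genes above the median brightness, tested alone, 7936 of 9969 (79.6%) were within the margin, 1016 were called higher and 992 lower. The 87.7% set beside lists of bright genes below is therefore a high mark for them. The called shares of all genes, 5.96% and 4.9%, are likewise low marks for such lists. A few calls in a short list can be near these shares and then show nothing about the list by themselves. Over all genes, the 4 arrays of each group lay wholly apart for 3133 (15.7%), among them 1060 of the called higher and 877 of the called lower genes. The share of higher genes among the calls was 54.9%, and 41.5% after each array was centred on its median, which lowered the median difference of all genes from -0.004 to -0.037. Without mutant replicate 1 there were 2279 calls, of which 1805 were shared with the 2164 made on all arrays. The count of lower genes was the least stable, at 623 without fasted heterozygous replicate 2 and 595 without replicate 4. The total was 1401 without that last array.

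**Figure D1:**
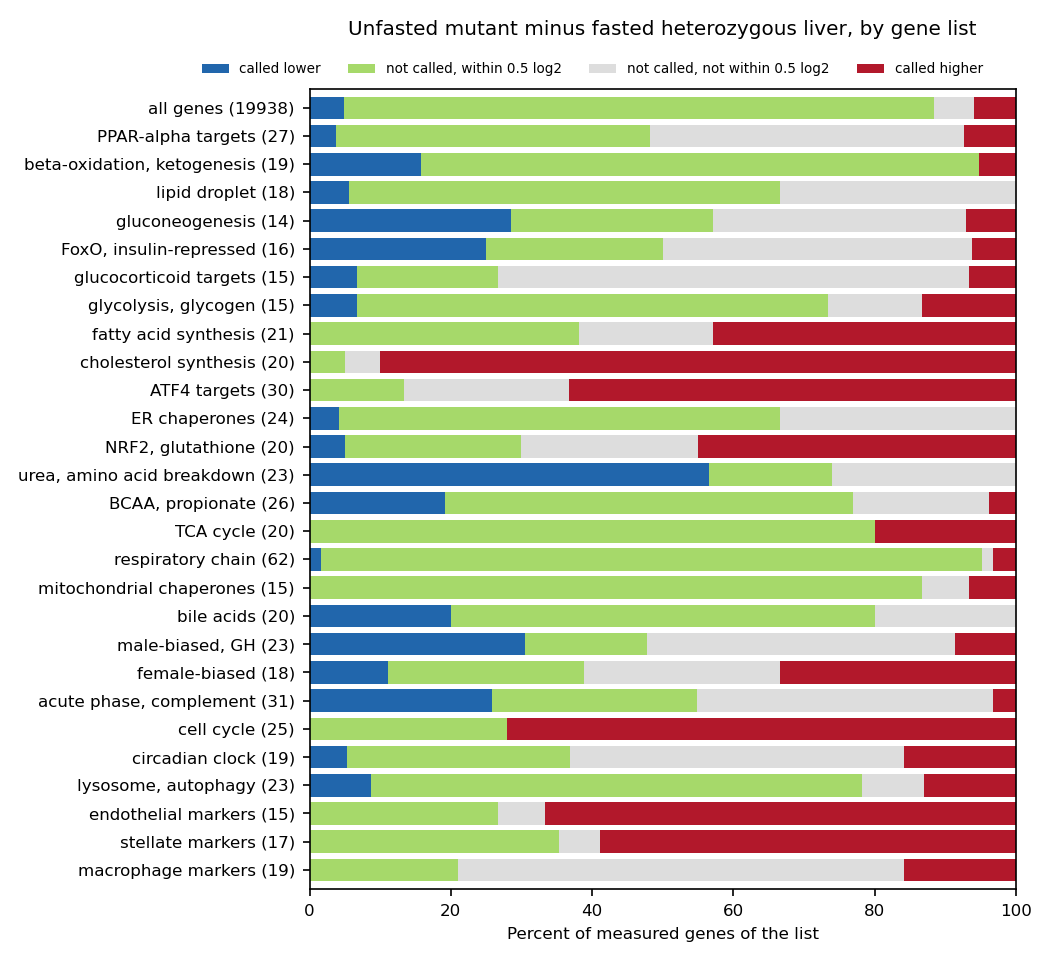
Horizontal bars give, for all genes and for 27 gene lists, the percent of measured genes (x axis, number measured in brackets) that were called lower, were not called and within 0.5 log2 units, were neither, or were called higher in the unfasted mutant. Of all genes 87.7% are within the margin, with or without a call, as are 18 of 19 in beta-oxidation, and cholesterol synthesis (18 of 20 higher), the cell cycle (18 of 25 higher) and amino acid breakdown (13 of 23 lower) stand at the ends.

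Fatty acid oxidation genes differed little between the unfasted mutant and the fasted liver. Of 19 measured genes of mitochondrial beta-oxidation and ketone body synthesis, 18 were within the margin (94.7%, against 87.7% of all genes), 1 was called higher and 3 lower, with a median difference of -0.09. The fast had moved only 1 of the 19 by more than 0.5 in heterozygotes. The median level of the list was 11.72 in unfasted heterozygotes, 11.80 in unfasted mutants and 11.93 in fasted heterozygotes, so the margin does not place these genes with either state. Acadm, the medium-chain acyl-CoA dehydrogenase, read 12.93, 13.02, 12.91 and 13.03 in fasted heterozygotes and 12.86, 12.83, 12.77 and 12.70 in unfasted mutants. All mutant arrays were slightly below, by -0.18 ± 0.07 (adjusted p for the margin 0.000393), while the unfasted heterozygotes averaged 12.57. Hadhb, a subunit of the trifunctional protein that shortens long chains, averaged 11.54 ± 0.06 (SD, n = 4) in fasted heterozygotes, 11.53 ± 0.18 in unfasted mutants and 11.08 in unfasted heterozygotes, and its arrays overlapped (margin adjusted p = 3.97e-05). The genes called lower were Etfdh (-0.30 ± 0.06, adjusted p = 0.00321) and Etfb (-0.25 ± 0.06, adjusted p = 0.0195), which pass electrons from the dehydrogenases to the respiratory chain, and Eci1 (-0.28 ± 0.08, adjusted p = 0.0361), an enoyl-CoA isomerase, and all of them lay within the margin. Their unfasted mutant means of 11.99 for Etfdh and 12.40 for Etfb were near the unfasted heterozygous 11.97 and 12.45. Etfdh kept its call when any 1 of the 8 arrays was left out. Etfb lost it without mutant replicate 3 or fasted heterozygous replicates 1 or 2 (adjusted p up to 0.056), and Eci1 without 6 of the 8 arrays, all but mutant replicate 1 and fasted heterozygous replicate 3 (up to 0.11). Leaving out mutant replicate 1 gave 6 lower genes and 16 within the margin, and mutant replicate 3 or fasted heterozygous replicates 1 or 2 left 1 lower gene. Bdh1, which interconverts the ketone bodies, was higher by 0.56 ± 0.11 (adjusted p = 0.00495), with 10.66 to 11.16 in fasted heterozygotes and 11.44 to 11.62 in mutants.

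The wider set of PPAR-alpha targets was less uniform. Of 27 measured, 12 were within the margin, which is a smaller share than among all genes, 2 were called higher, 1 lower and 12 were undecided, with a median difference of -0.03. Without mutant replicate 1 the counts were 10 within, 2 higher and 2 lower. Cyp4a10, a microsomal fatty acid omega-hydroxylase, read 13.09, 13.23, 13.18 and 13.11 in fasted heterozygotes and 12.95, 12.94, 12.92 and 13.02 in unfasted mutants. The groups stood just apart and the difference of -0.19 ± 0.13 was within the margin (adjusted p = 0.0181). In unfasted heterozygotes Cyp4a10 ranged from 11.94 to 12.81. Ehhadh, a bifunctional enzyme of peroxisomal beta-oxidation, read 12.21 to 12.45 in fasted heterozygotes and 12.40, 12.28, 11.82 and 12.27 in unfasted mutants, an overlap with a difference of -0.13 ± 0.15 (margin adjusted p = 0.0137). Its unfasted heterozygous arrays were at 11.28 to 11.99. Cyp4a31, another omega-hydroxylase, differed by -0.03 ± 0.18 (margin adjusted p = 0.0112), with 11.76 in unfasted heterozygotes against 12.63 and 12.60. Cpt1a, which controls entry of fatty acids into mitochondria, averaged 12.33 in fasted heterozygotes, 12.05 in unfasted mutants and 11.81 in unfasted heterozygotes. Its difference of -0.28 ± 0.10 was within the margin at an adjusted p of 0.0266, but not after leaving out any 1 of mutant replicates 1 to 3 or fasted heterozygous replicates 1 or 2.

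Acot2 and Fgf21 were above the fasted level. Acot2, a mitochondrial acyl-CoA thioesterase, read 10.18, 10.68, 10.07 and 10.43 in fasted heterozygotes and 12.35, 12.01, 11.56 and 11.33 in unfasted mutants. Every mutant array was above every fasted one, by 1.47 ± 0.30 (2.77-fold, adjusted p = 0.00574). Fgf21, a hormone of the fasted and the stressed liver, read 8.43, 8.48, 8.12 and 8.38 in fasted heterozygotes and 10.39, 10.03, 9.47 and 9.03 in unfasted mutants, a difference of 1.38 ± 0.23 (2.60-fold, adjusted p = 0.00151). The fast itself had left Fgf21 near its unfasted heterozygous mean of 8.08. Pdk4, the kinase that shuts off pyruvate oxidation, read 10.08 to 10.53 and then 12.03, 11.77, 11.15 and 10.54, apart on all arrays. Its 1.15 ± 0.38 missed the call (adjusted p = 0.0681, and from 0.027 to 0.16 with an array left out). Creb3l3, a liver factor that acts with PPAR-alpha, was the lower gene, by -0.47 ± 0.07 (adjusted p = 0.000989).

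**Figure D2:**
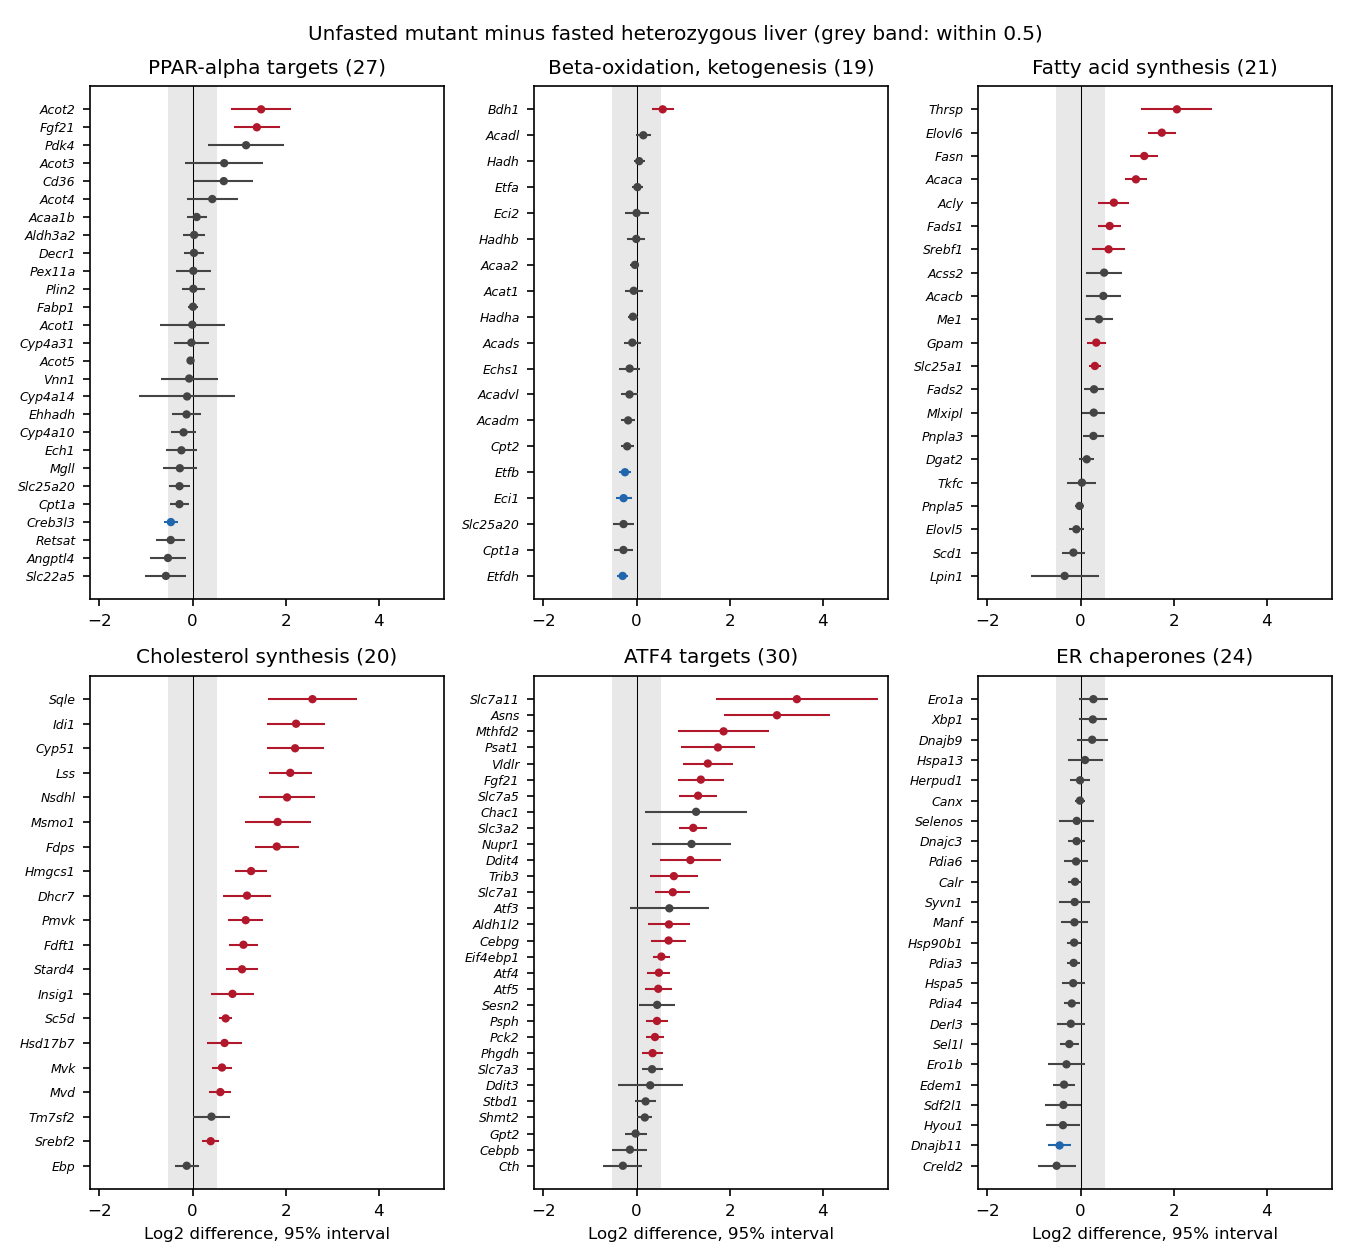
Log2 differences with 95% confidence intervals (x axis, unfasted mutant minus fasted heterozygous, 4 arrays each) for every measured gene of 6 lists (y axis), with called genes in red or blue and the margin of 0.5 as a grey band. Beta-oxidation genes gather in the band. The differences of ER chaperone genes are small too, but only 15 of 24 are within the margin (62.5%, against 87.7% of all genes). Cholesterol synthesis and ATF4 targets reach from the band to 2.58 for Sqle and 3.44 for Slc7a11.

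Lipid storage genes matched less often than all genes did. Of 18 lipid droplet genes, 11 were within the margin (61.1% against 87.7%, and 10 without mutant replicate 1), 6 were undecided and Plin5, the droplet protein that contacts mitochondria, was lower. The median level of the list was 9.61 in unfasted heterozygotes, 9.87 in unfasted mutants and 10.17 in fasted heterozygotes. Plin5 read 10.39, 10.58, 10.37 and 10.29 in fasted heterozygotes and 10.10, 9.68, 9.51 and 9.35 in mutants. That is a difference of -0.75 ± 0.13 (adjusted p = 0.00237) that leaves the mutants above the unfasted heterozygous range of 9.16 to 9.48 on 3 of 4 arrays. Pnpla2, the triglyceride lipase, averaged 10.40 in fasted heterozygotes, 10.36 in unfasted mutants and 9.76 in unfasted heterozygotes (-0.05 ± 0.16, margin adjusted p = 0.00799).

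Several genes of glucose production were below the fasted level. Among 14 measured gluconeogenic genes, 4 were lower and 1 was higher, against 4.9% and 5.96% of all genes. Another 4 were within the margin and 5 were undecided, with a median difference of -0.33. The counts of calls were the same without mutant replicate 1. Pck1, which makes phosphoenolpyruvate in the cytosol, read 12.76, 12.78, 12.90 and 12.75 in fasted heterozygotes and 12.56, 12.31, 12.17 and 12.11 in unfasted mutants. The difference was -0.51 ± 0.10 (adjusted p = 0.00445), and the unfasted heterozygotes averaged 12.20. G6pc, the catalytic subunit of glucose-6-phosphatase, read 12.79, 12.82, 13.24 and 12.88 against 11.68, 11.95, 12.36 and 12.69 (-0.77 ± 0.17, adjusted p = 0.0102). For G6pc the unfasted heterozygous arrays (12.81 to 13.02) were also above every mutant array, so the mutant level was below both heterozygous states. The same order was seen for Slc37a4, the transporter that feeds glucose-6-phosphate to that enzyme, with 11.75 to 11.91 in fasted heterozygotes, 11.38 to 11.64 in unfasted ones and 11.13, 10.98, 11.52 and 10.64 in mutants (-0.74 ± 0.13, adjusted p = 0.00239), although 1 mutant array fell in the unfasted range. Gpd1, the cytosolic glycerol-3-phosphate dehydrogenase, was lower by -0.42 ± 0.08 (adjusted p = 0.00252). Pck2, the mitochondrial form of Pck1, was the higher gene and is also a target of ATF4. Fbp1, Got2, Mdh1 and Gpt2 were the members within the margin.

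Genes that insulin represses through FoxO gave no single picture. Of 16 measured, 4 were lower and 1 was higher, against 4.9% and 5.96% of all genes. Another 4 were within the margin without a call and 7 were undecided. The lower count was 2 when mutant replicates 1 or 2 or fasted heterozygous replicates 2, 3 or 4 were left out. Igfbp1, a secreted binding protein of insulin-like growth factors that rises steeply on fasting, read 11.57, 10.28, 12.02 and 11.49 in fasted heterozygotes, 12.87, 12.41, 11.29 and 11.60 in unfasted mutants and 7.93 to 10.14 in unfasted heterozygotes. Both groups of the comparison overlapped at the high end, and with a difference of 0.70 ± 0.46 Igfbp1 was neither called (adjusted p = 0.394) nor within the margin (0.691). Ppargc1a, a coactivator of gluconeogenic genes, was likewise undecided at -0.35 ± 0.27 (adjusted p = 0.477). Foxo1 was within the margin at -0.01 ± 0.14 (margin adjusted p = 0.00161). Gadd45a, a growth arrest gene, was higher by 0.92 ± 0.22 (adjusted p = 0.0126). Sesn3 was lower by -0.41 ± 0.12 (adjusted p = 0.0358), a call that stood only without mutant replicate 4 or fasted heterozygous replicate 1 when arrays were left out in turn (otherwise up to 0.11). Of 15 glucocorticoid targets 10 were undecided, 3 within the margin, Dusp1 was lower (-0.97 ± 0.23, adjusted p = 0.0133) and Ddit4 higher (1.16 ± 0.31, adjusted p = 0.0229, and 0.0529 without mutant replicate 1). Without mutant replicate 1 that list had 1 gene within the margin and 2 lower, and mutant replicate 2 also left 1 within it. Ddit4 also lost its call without mutant replicate 2 or fasted heterozygous replicates 3 or 4 (up to 0.074).

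Fatty acid synthesis was above the fasted level. Of 21 measured genes 9 were higher, none was lower, 8 were within the margin without a call and 4 were undecided, and the median difference was 0.34 against -0.004 for all genes. The counts of 9 higher and 0 lower were the same without mutant replicate 1. Fasn, fatty acid synthase, read 10.51, 10.30, 10.18 and 10.40 in fasted heterozygotes and 11.81, 11.66, 11.79 and 11.60 in unfasted mutants. The mutant arrays were all higher, by 1.37 ± 0.14 (2.58-fold, adjusted p = 8.05e-05), and reached the lower end of the unfasted heterozygous range of 11.78 to 12.39. Elovl6, which lengthens palmitate, read 9.79 to 10.28 against 11.65, 11.76, 12.15 and 11.81 (1.74 ± 0.14, adjusted p = 1.77e-05), with 11.47 to 12.02 in unfasted heterozygotes. Acaca, acetyl-CoA carboxylase, read 9.65 to 10.02 against 10.87 to 11.18 (1.19 ± 0.11, adjusted p = 2.36e-05). Thrsp, a lipogenic gene of the carbohydrate response, had the largest difference of the list at 2.07 ± 0.36 (4.20-fold, adjusted p = 0.00195), with 8.16 to 8.75 against 11.18, 10.84, 10.68 and 9.52.

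The regulators moved less than these enzymes. Srebf1, the gene of SREBP-1c, read 8.98 to 9.08 in fasted heterozygotes and 9.31, 9.50, 9.49 and 10.21 in unfasted mutants, while unfasted heterozygotes were at 10.45 to 10.96. Its difference of 0.60 ± 0.17 was called (adjusted p = 0.0292), but not without mutant replicate 4 or without any 1 of the 4 fasted heterozygous arrays (up to 0.071). Mlxipl, the gene of the carbohydrate response factor ChREBP, differed by 0.28 ± 0.12. It was within the margin at an adjusted p of 0.0484, which 6 of the 8 arrays were needed for. Without mutant replicate 1 Mlxipl was called higher, by 0.38 ± 0.11 (adjusted p = 0.0389), and was not within the margin (0.171). Among genes of glucose use, Pklr, the liver pyruvate kinase, was higher by 0.83 ± 0.21 (adjusted p = 0.0177, and up to 0.056 without mutant replicate 3 or fasted heterozygous replicate 3). Ppp1r3c, which targets a phosphatase to glycogen, was lower by -1.73 ± 0.40 (adjusted p = 0.0111), with 9.84 to 10.19 in fasted heterozygotes and 7.87, 8.33, 7.80 and 9.30 in mutants. The glycolysis and glycogen list held 15 measured genes, of which 10 were within the margin (6 without mutant replicate 4), 2 higher (1 without mutant replicate 1 and 0 without mutant replicate 3 or fasted heterozygous replicate 3) and 1 lower.

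Cholesterol synthesis had the largest share of higher genes among the 36 lists. Of 20 measured genes 18 were higher, each with its arrays apart, with a median difference of 1.12, and none was lower. There were 17 higher without mutant replicate 1. Sqle, squalene epoxidase, read 7.69, 8.48, 8.44 and 9.28 in fasted heterozygotes and 11.17, 11.21, 10.97 and 10.84 in unfasted mutants. The difference was 2.58 ± 0.45 (5.96-fold, adjusted p = 0.00191), and all 4 mutant arrays were also above the 8.48 to 10.40 of unfasted heterozygotes. Lss, which closes the sterol rings, read 8.20 to 8.54 against 10.28 to 10.69 (2.10 ± 0.22, adjusted p = 8.74e-05), again above the unfasted heterozygous 9.06 to 10.00. Idi1, which isomerizes the isoprenoid unit, read 9.17 to 10.12 against 11.74 to 12.07 (2.22 ± 0.29, adjusted p = 0.000328), and Cyp51, the lanosterol demethylase, was higher by 2.20 ± 0.29 (adjusted p = 0.000331). These 4 genes kept their calls whichever of the 8 arrays was left out. Ebp, a late sterol isomerase, was the member within the margin (-0.13 ± 0.12, margin adjusted p = 0.00474).

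**Figure D3:**
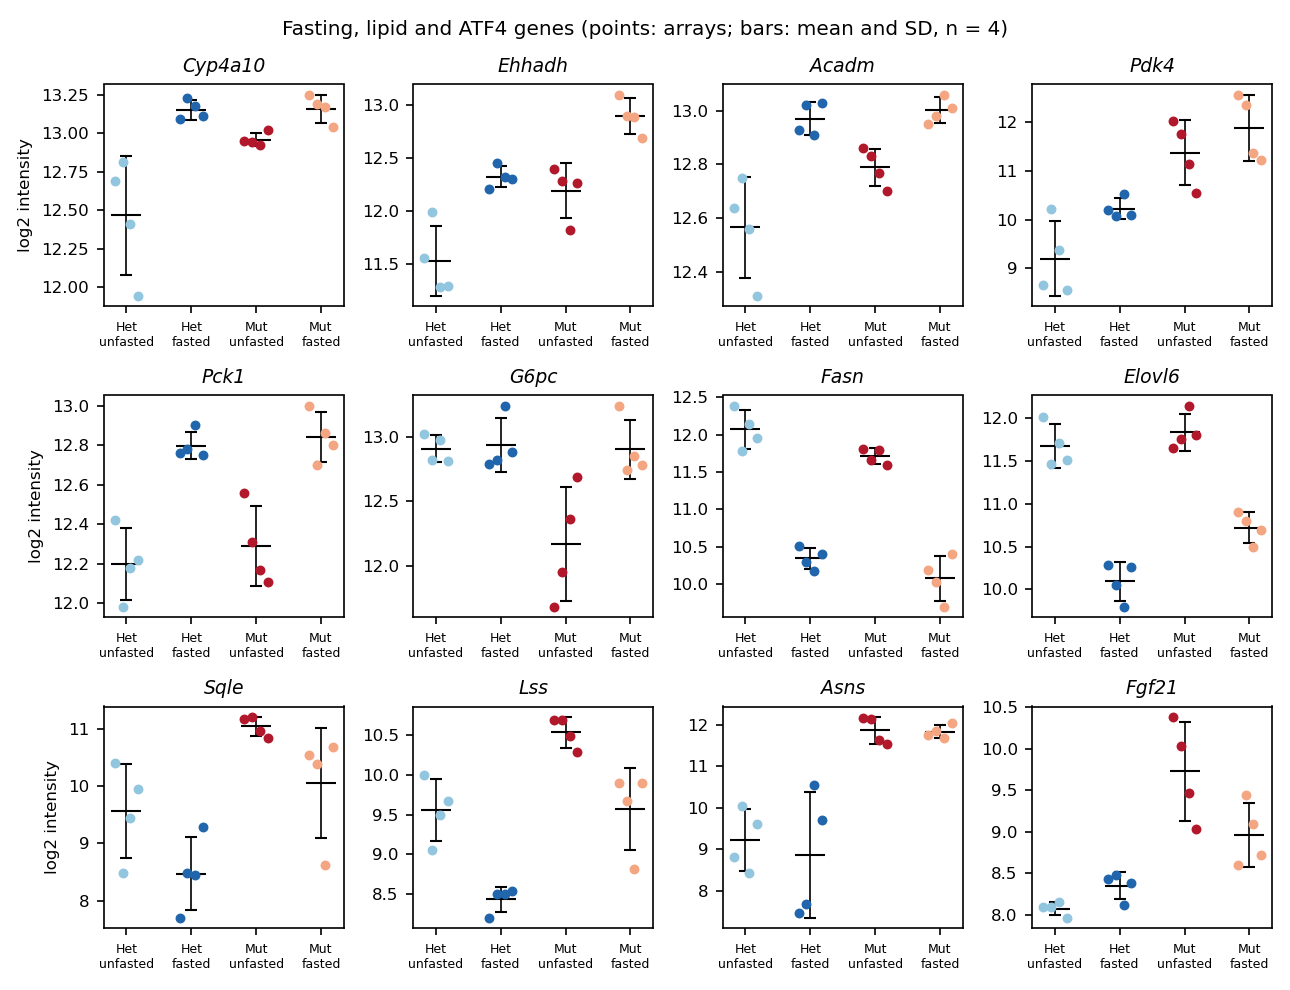
Log2 intensity (y axis) on every array of the 4 groups (x axis) for 12 genes of fasting, lipid synthesis and the ATF4 response, with bars for the mean and SD (n = 4). Unfasted mutants sit beside fasted heterozygotes for Ehhadh, beside unfasted heterozygotes for Pck1 and Elovl6, and above both for Sqle, Lss, Asns and Fgf21.

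Targets of ATF4 were also above the fasted level. Of 30 measured, 19 were higher, none was lower, 4 were within the margin and 7 were undecided, and the median difference was 0.69. The higher count was 13 without mutant replicate 1 and 12 without mutant replicate 2. Promoters of the list carried the core of the element that ATF4 binds. The letters TGATGNAA, on either strand between 250 bases before and 50 after the start, were found in 9 of the 25 genes with a RefSeq promoter (36.0%), against 4.51% of 27025 genes and 3.97% of 32851 promoters. A match of letters describes the sequence and shows no binding. The gene lists were written from general knowledge of such genes, so a high share of matches is not a result of these data. Atf3, Chac1 and Nupr1, which were undecided in the comparison, were among the 9 with a match. Pieces around the match are given for 4 others of the 9, picked because they lay high in the mutant (GRCm38.p6, 5′ to 3′ along the gene, none past the start, the match in capitals). They are Slc7a11 at chr3:50443632-50443719 (minus strand), Asns at chr6:7693210-7693272 (minus), Fgf21 at chr7:45615582-45615669 (minus) and Vldlr at chr19:27216780-27216867 (plus).
Slc7a11: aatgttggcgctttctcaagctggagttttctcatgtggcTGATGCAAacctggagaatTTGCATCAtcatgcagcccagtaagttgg
Asns: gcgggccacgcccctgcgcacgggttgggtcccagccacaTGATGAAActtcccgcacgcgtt
Fgf21: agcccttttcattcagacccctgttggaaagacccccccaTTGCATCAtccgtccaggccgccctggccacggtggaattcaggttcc
Vldlr: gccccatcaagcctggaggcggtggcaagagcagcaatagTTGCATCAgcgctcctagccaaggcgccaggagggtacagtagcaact
Slc7a11 holds 2 matches on opposite strands, Asns 1 that begins 23 bases before the start, and in Fgf21 and Vldlr the letters run on the other strand.

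Slc7a11, the cystine importer, read 5.68, 5.49, 5.62 and 5.51 in fasted heterozygotes and 10.71, 10.45, 9.11 and 5.79 in unfasted mutants. The first 3 mutant arrays were far above and the fourth barely so, and the difference was 3.44 ± 0.82 (10.9-fold, adjusted p = 0.0133, and at most 0.045 with an array left out). Asns, asparagine synthetase, read 7.46, 7.68, 10.54 and 9.71 in fasted heterozygotes and 12.16, 12.13, 11.64 and 11.53 in unfasted mutants. Here the fasted livers were the spread-out group, and the difference was 3.02 ± 0.53 (8.08-fold, adjusted p = 0.00218). Psat1, of serine synthesis, read 7.43 to 7.58 against 10.22, 10.05, 8.86 and 7.98 (1.75 ± 0.37, adjusted p = 0.0075), and Mthfd2, of mitochondrial folate metabolism, 7.23 to 7.34 against 10.44, 10.36, 7.90 and 7.91 (1.87 ± 0.46, adjusted p = 0.0158). Vldlr, a lipoprotein receptor, was higher by 1.53 with 7.30 to 8.12 against 8.69 to 9.62. Mutant replicate 1, with the acinar transcripts, had the highest Slc7a11, Psat1 and Mthfd2, and the part of those transcripts in these values was not tested. Atf4 itself was higher by 0.48. Atf3 (0.70), Chac1 (1.28), Nupr1 (1.18) and Ddit3 (0.29) were among the undecided.

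Chaperones of the endoplasmic reticulum did not share that pattern. Of 24 measured, 15 were within the margin, a smaller share (62.5%) than among all genes (87.7%) or those above the median brightness (79.6%). Another 8 were undecided, none was higher and 1, Dnajb11, was lower (-0.45 ± 0.11, adjusted p = 0.0173). The median difference was -0.14, and the counts of calls were the same without mutant replicate 1. The median levels of the list were 11.06 in fasted heterozygotes and 10.83 in unfasted mutants, against 11.30 in unfasted heterozygotes. The ER stress element, CCAAT and CCACG spaced by 9 bases, was found on either strand in 10 of 21 promoters of the list (47.6%) and in 0.14% of all genes. It is shown for Hspa5, the central chaperone BiP, at chr2:34771985-34772083 (plus strand), Pdia6, a disulfide isomerase, at chr12:17266451-17266549 (plus) and Syvn1, a ubiquitin ligase of protein disposal, at chr19:6046492-6046575 (plus), in the same layout.
Hspa5: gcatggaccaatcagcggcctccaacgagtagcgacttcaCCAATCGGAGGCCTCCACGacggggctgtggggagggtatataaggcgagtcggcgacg
Pdia6: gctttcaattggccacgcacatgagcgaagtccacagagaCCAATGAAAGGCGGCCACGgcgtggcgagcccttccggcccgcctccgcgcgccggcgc
Syvn1: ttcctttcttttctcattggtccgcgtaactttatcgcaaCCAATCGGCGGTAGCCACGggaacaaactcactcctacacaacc
Hspa5 read 12.56, 12.44, 12.43 and 12.39 in fasted heterozygotes and 12.50, 12.30, 11.90 and 12.48 in unfasted mutants, and was within the margin at -0.16. Pdia6 read 10.45 to 10.77 against 10.79, 10.42, 10.19 and 10.62 (-0.10 ± 0.12, margin adjusted p = 0.00304), while unfasted heterozygotes were at 10.97 to 11.30, above every array of both groups. Syvn1 was within the margin at -0.13 ± 0.15 (adjusted p = 0.0165), but not without fasted heterozygous replicate 3. No promoter of either list held the element of the other, except that TGATGNAA was in 1 of the 21 ER chaperone promoters. The PPAR-alpha repeat, AGGNCA, 1 base and AGGTCA, was in 1 of 21 PPAR-alpha target promoters, that of Fabp1, and in 0.11% of genes. A sterol element, ATCACNCCAC, added after the values were seen, was in none of 16 cholesterol synthesis promoters and in 0.27% of genes.

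Genes of glutathione and the oxidant response factor NRF2 were partly higher, 9 of 20 with 1 lower, 5 within the margin (9 without mutant replicate 3) and 5 undecided, and 8 higher without mutant replicate 1. Slc7a11 is counted in both this list and the ATF4 list. Abcc4, an exporter of bile acids and conjugates, read 7.91, 7.93, 7.77 and 7.70 in fasted heterozygotes and 9.87, 9.69, 10.58 and 9.86 in unfasted mutants. The gap was wide on every array, with a difference of 2.17 ± 0.24 (4.50-fold, adjusted p = 0.000103). Hmox1, heme oxygenase, was higher by 1.5 ± 0.38 (adjusted p = 0.0179, and 0.059 without mutant replicate 2), and Gstm3, a glutathione transferase, by 1.09 ± 0.24 (adjusted p = 0.00789). Gclm, Gsr, Gstm1 and Abcc3 were within the margin.

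Amino acid breakdown was below the fasted level. Of 23 measured genes of the urea cycle and amino acid catabolism, 13 were lower and none was higher, 4 were within the margin without a call, 6 were undecided and the median difference was -0.46. Without mutant replicate 1 there were 11 lower. In all 5 were within the margin, called or not, and 9 without mutant replicate 3. Asl, argininosuccinate lyase of the urea cycle, read 12.04, 11.99, 12.68 and 11.89 in fasted heterozygotes and 11.11, 10.95, 10.94 and 11.07 in unfasted mutants, a difference of -1.13 ± 0.17 (2.19-fold, adjusted p = 0.000961). Of the mutant arrays, 2 were below the unfasted heterozygous range of 11.03 to 11.69 and 2 near its lower end. Gldc, of glycine cleavage, read 11.21 to 11.56 against 10.15, 10.02, 9.21 and 10.44 (-1.38 ± 0.25, adjusted p = 0.00226), and Hal, which opens histidine breakdown, 12.19 to 12.69 against 10.48, 10.66, 10.87 and 11.70 (-1.48 ± 0.26, adjusted p = 0.00195). Arg1, the arginase of the urea cycle, was lower by -0.67 ± 0.09 (adjusted p = 0.00046). Oat, ornithine aminotransferase, was lower by -1.25 ± 0.35 (adjusted p = 0.031) but kept its call only without mutant replicate 4 when arrays were left out in turn (otherwise up to 0.099). Glud1, glutamate dehydrogenase, was within the margin (0.06 ± 0.06, adjusted p = 1.8e-06). Of 10 measured markers of periportal hepatocytes, the cells that carry much of this metabolism, 5 were lower, among them Etnppl (-1.48 ± 0.31, adjusted p = 0.00683) and Cyp2f2 (-0.63 ± 0.17, adjusted p = 0.0221, and up to 0.064 without mutant replicate 3 or fasted heterozygous replicates 2 or 4). Hal, Pck1 and Arg1 are in that list too. Of 12 pericentral markers 1 was higher and 2 were lower, and 0 were lower without mutant replicates 1 or 2 or any 1 of the fasted heterozygous arrays (1 without mutant replicate 3). In RNA of whole liver, fewer cells of a type and less RNA per cell cannot be told apart.

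The pathway that leads to the missing enzyme held a smaller share of matching genes than the whole array. Of 26 measured genes that break down branched-chain amino acids and propionate, 16 were within the margin (61.5% against 87.7%), 5 were lower with Mmut among them, 1 was higher and 5 were undecided. The lower count was 4 without mutant replicate 1 and 3 without mutant replicates 2 or 3 or fasted heterozygous replicates 3 or 4. Hsd17b10, of isoleucine breakdown and also a subunit of mitochondrial RNase P, read 12.55, 12.60, 12.73 and 12.76 in fasted heterozygotes and 11.62, 11.69, 11.82 and 11.92 in unfasted mutants. The groups were clearly apart (-0.90 ± 0.11, 1.86-fold, adjusted p = 0.000242), and the mutant arrays were below the unfasted heterozygous 11.97 to 12.36 as well. Acad8, of valine breakdown, was lower by -0.42 ± 0.09 (adjusted p = 0.00901). Mmab, which makes the cobalamin cofactor of the mutase, was the higher gene, with 7.93 to 8.25 against 8.63 to 8.79 (0.65 ± 0.12, adjusted p = 0.00226). Pcca, a subunit of propionyl-CoA carboxylase, differed by -0.27 ± 0.11 and was within the margin (adjusted p = 0.0336), but not without mutant replicates 1 or 4 or fasted heterozygous replicates 1 or 2.

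Other mitochondrial genes were within the margin at about the share of all genes (87.7%), the respiratory chain above it. Among genes above the median brightness alone, the share was lower, at 79.6%. These lists are bright, with median levels in fasted heterozygotes of 11.11 for the respiratory chain, 11.30 for the citric acid cycle and 10.86 for mitochondrial chaperones. Of 62 subunits and factors of that chain 60 were within the margin (96.8%), with 2 higher and 1 lower, and 59 without mutant replicate 1, where 0 were higher and 3 lower. The higher count was 0 or 1 and the lower count 0 to 3 whichever of the 8 arrays was left out. Of 15 mitochondrial chaperone and protease genes 13 were within it (86.7%) and 1 was higher (3 without mutant replicate 3). Of 20 citric acid cycle genes 17 were within the margin (85.0%) and 4 were higher. Idh2, the mitochondrial NADP-dependent isocitrate dehydrogenase, read 11.30, 11.31, 11.11 and 11.08 in fasted heterozygotes and 11.89, 11.72, 12.04 and 12.16 in unfasted mutants (0.75 ± 0.10, adjusted p = 0.000435). Mdh2, the mitochondrial malate dehydrogenase, was higher by 0.42 ± 0.09 (adjusted p = 0.00748). Cs, citrate synthase, was higher by 0.35 ± 0.09 (adjusted p = 0.0204) and Sdhc, a subunit of succinate dehydrogenase, by 0.23 ± 0.06 (adjusted p = 0.0283). Both lost the call without mutant replicate 4 or fasted heterozygous replicate 3, which left 2 higher genes, and Sdhc also without mutant replicate 3 or fasted heterozygous replicates 2 or 4 (up to 0.085). Of 23 lysosome and autophagy genes 17 were within the margin (73.9%), 3 were higher and 2 lower (5.96% and 4.9% of all genes). There was 1 higher without fasted heterozygous replicate 3, and 1 lower without that array, mutant replicates 2 or 3 or fasted heterozygous replicate 4.

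The largest fall and the largest rise among the genes that could be named were in genes whose liver level depends on sex and on the pattern of growth hormone. Elovl3, a fatty acid elongase of male liver, read 12.02, 12.20, 12.52 and 12.38 in fasted heterozygotes and 9.24, 8.52, 5.96 and 8.17 in unfasted mutants, a difference of -4.31 ± 0.70 (19.8-fold, adjusted p = 0.00128). Cyp2b13, a cytochrome P450 of female liver, read 7.78, 6.15, 5.52 and 5.65 against 9.0, 10.83, 10.27 and 11.39 (4.10 ± 0.51, 17.2-fold, adjusted p = 0.000238). Cyp2a22, another female-biased P450, read 9.76, 9.90, 7.72 and 9.53 against 12.36 to 12.66 (3.29 ± 0.45, adjusted p = 0.000421). Obp2a, an odorant-binding protein, was lower by -3.05 ± 0.34 (adjusted p = 0.000103). Each of these genes was on opposite sides of the groups on every array, and none lost its call when an array was left out. Cyp2b9 was higher by 3.52 ± 1.0 (adjusted p = 0.0329), but its fasted heterozygous arrays ran from 7.10 to 12.59 and the call held only without fasted heterozygous replicate 1 (0.0515 without mutant replicate 1, up to 0.11). These P450 genes have near-identical relatives whose probes may share signal.

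As lists, 7 of 23 male-biased or growth hormone-dependent genes were lower and 2 higher (4.9% and 5.96% of all genes), with 4 within the margin and 10 undecided. Of 18 female-biased genes 6 were higher and 2 lower, with 5 undecided. Without mutant replicate 1 the counts were 7 lower and 1 higher, and 5 higher and 2 lower. The 2 higher male-biased genes became 1 without mutant replicates 1 or 3 or fasted heterozygous replicates 1, 2 or 3, and the 2 lower female-biased ones became 1 without mutant replicates 2 or 3 or fasted heterozygous replicates 1 or 3. The exceptions among female-biased genes included Cyp17a1, of steroid synthesis, which was lower by -2.61 ± 0.34 (6.12-fold, adjusted p = 0.000328). It read 10.41, 10.89, 10.96 and 11.31 in fasted heterozygotes, 9.08, 8.57, 7.83 and 7.64 in mutants and 7.87 to 9.30 in unfasted heterozygotes, so the mutants stood with the unfasted livers. Mup21, a major urinary protein, was lower by -1.87 ± 0.39 (adjusted p = 0.00617). Igf1, the growth factor that growth hormone induces in liver, matched closely, with 12.24, 12.36, 12.42 and 12.37 against 12.32, 12.39, 12.27 and 12.33 (-0.02 ± 0.06, margin adjusted p = 9.38e-07), and Ghr, the growth hormone receptor, was within the margin at -0.21 ± 0.09 (adjusted p = 0.00278). Lepr, the leptin receptor, read 6.73 to 7.63 in fasted heterozygotes and 10.61, 9.87, 10.05 and 6.99 in unfasted mutants. It was called at 2.14 ± 0.59 (adjusted p = 0.0278), but mutant replicate 4 lay inside the fasted range and the call held only without that array or fasted heterozygous replicate 1 (0.0755 without mutant replicate 1, up to 0.083).

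**Figure D4:**
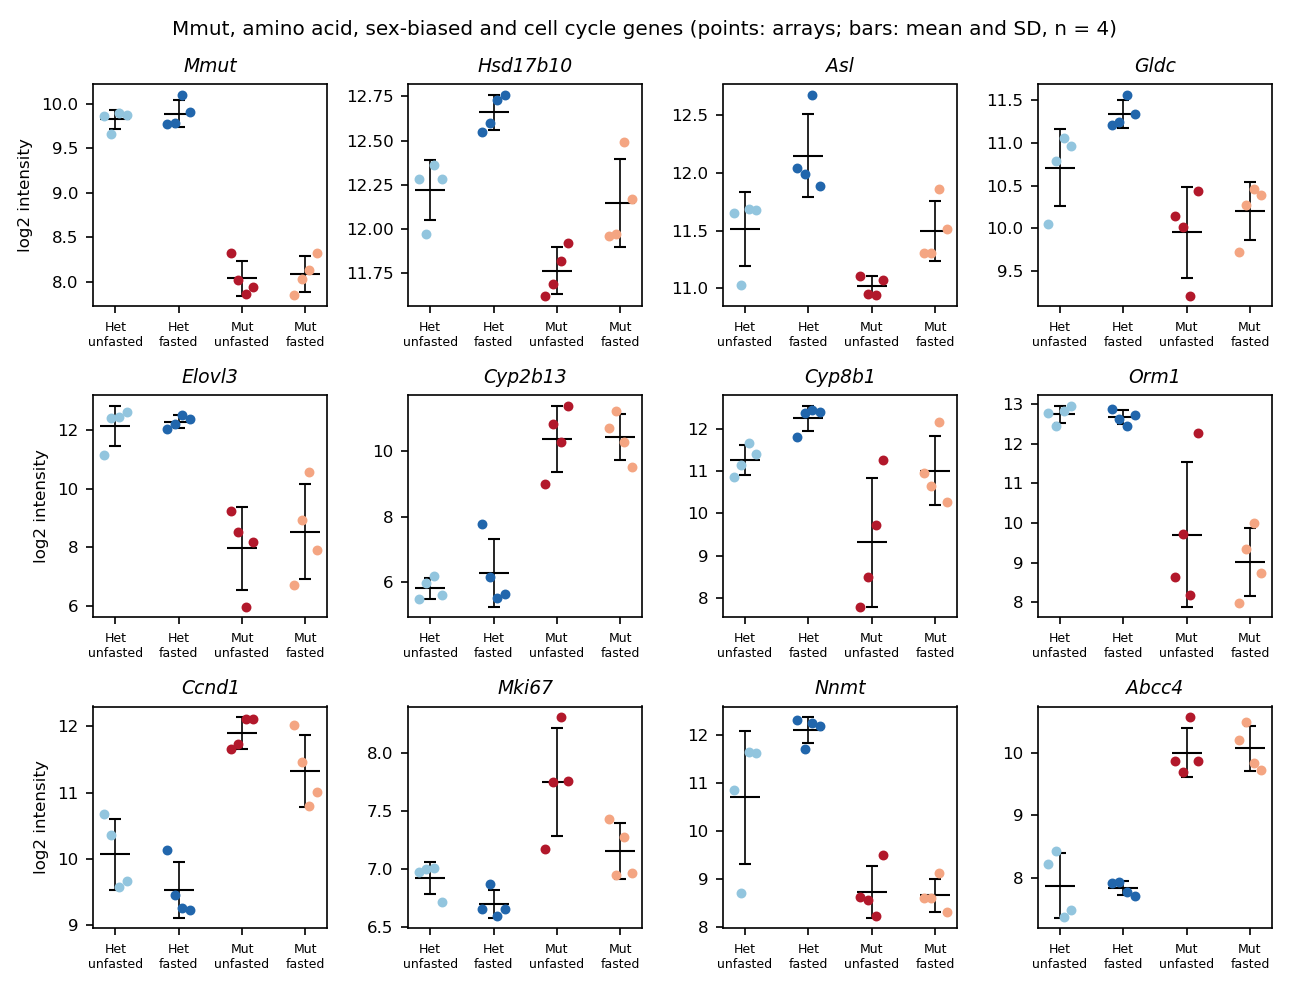
Log2 intensity (y axis) on every array of the 4 groups (x axis) for Mmut and 11 genes of amino acid breakdown, sex-biased expression, bile acids, the acute phase and the cell cycle, with bars for the mean and SD (n = 4). Mmut, Elovl3 and Nnmt are low in the unfasted mutant, Cyp2b13, Ccnd1 and Abcc4 are high, and mutant replicate 4 is the outlying point at 12.28 for Orm1.

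Other genes with large differences included Nnmt, which methylates nicotinamide. It read 12.31, 11.71, 12.24 and 12.18 in fasted heterozygotes and 8.62, 8.56, 8.22 and 9.50 in unfasted mutants (-3.38 ± 0.48, 10.4-fold, adjusted p = 0.000521), with a spread of 8.70 to 11.65 among unfasted heterozygotes. Mfsd2a, a transporter of lysophospholipids, was lower by -2.58 ± 0.46 (adjusted p = 0.00227) and Slc3a1, a subunit of the cystine and dibasic amino acid transporter, by -2.42 ± 0.29 (adjusted p = 0.000163). Serpina4-ps1, a serpin pseudogene, was lower by -2.53 ± 0.67 (adjusted p = 0.0226), a call lost without mutant replicates 3 or 4 or fasted heterozygous replicates 2 or 4 (up to 0.073). Among the rises were Slc22a27 (2.48 ± 0.28, adjusted p = 0.000116) and Slc22a26 (2.40 ± 0.31, adjusted p = 0.000298), organic anion transporters, and Serpina7, thyroxine-binding globulin (2.23 ± 0.49, adjusted p = 0.00869). Slc22a26 is also counted among the higher genes of the female-biased list.

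A smaller share of bile acid genes than of all genes was within the margin. Of 20 measured, 12 were within it (60.0% against 87.7%), 4 were lower (5 without mutant replicate 1), 4 were undecided and none was higher. Cyp8b1, which commits bile acids to cholic acid, read 11.79, 12.36, 12.43 and 12.38 in fasted heterozygotes and 7.79, 8.51, 9.72 and 11.26 in unfasted mutants (-2.92 ± 0.55, 7.58-fold, adjusted p = 0.00327). The mutant arrays spanned a wide range, with replicate 4 inside the unfasted heterozygous 10.85 to 11.67. Cyp7b1, of the alternative pathway and male-biased, read 10.56 to 11.68 against 9.14 to 9.41 (-1.78 ± 0.24, adjusted p = 0.000421). Cyp7a1, the rate-limiting enzyme of the classical pathway, was undecided, with 11.19 to 12.93 against 11.35 to 12.73 and a difference of 0.08 ± 0.41. Baat, which conjugates bile acids, was lower by -0.48 ± 0.12 (adjusted p = 0.0163) and Acox2, of side-chain shortening, by -0.34 ± 0.09 (adjusted p = 0.0272). Both lost the call without fasted heterozygous replicate 3, which left 2 lower genes (0.055 for Baat), and Acox2 also without mutant replicates 3 or 4 or fasted heterozygous replicate 4 (up to 0.077). The export pump Abcb11 was within the margin (0.13 ± 0.11, adjusted p = 0.00187).

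Secreted proteins of the acute phase and complement were lower in part. Of 31 measured 8 were lower and 1 was higher, against 4.9% and 5.96% of all genes. Another 9 were within the margin and 13 were undecided, with a median difference of -0.40. Without mutant replicate 1, 11 were lower and 0 higher. The higher count was also 0 without mutant replicate 2 or fasted heterozygous replicates 2, 3 or 4, and 2 without fasted heterozygous replicate 1. Orm1, an acute phase glycoprotein, read 12.88, 12.62, 12.45 and 12.73 in fasted heterozygotes and 8.64, 9.72, 8.19 and 12.28 in unfasted mutants. The other mutant arrays were far below and replicate 4 was close to the fasted level, with a difference of -2.96 ± 0.63 (7.80-fold, adjusted p = 0.00723). C9, of the terminal complement complex, also had mutant replicate 4 nearest to the fasted level, with 12.08 to 12.42 against 9.29, 10.38, 9.51 and 11.67 (-2.06 ± 0.46, adjusted p = 0.00983), as did Pigr, the receptor that carries immunoglobulin A into bile, with 12.09 to 12.22 against 9.21, 9.02, 9.41 and 11.67 (-2.35 ± 0.40, adjusted p = 0.00179). Orm3 was lower by -2.42 ± 0.34 (adjusted p = 0.000504) and C6 by -1.32 ± 0.28 (adjusted p = 0.00644). Cp, ceruloplasmin, matched at 0.01 ± 0.05 (margin adjusted p = 1.81e-07), and Itih4, another plasma protein, at -0.14 ± 0.07 (8.41e-05).

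Cell cycle genes were higher in the unfasted mutant, 18 of 25 with none lower and the other 7 within the margin, at a median difference of 0.49, and 19 without mutant replicate 1. Ccnd1, cyclin D1, read 10.14, 9.46, 9.27 and 9.24 in fasted heterozygotes and 11.65, 11.73, 12.11 and 12.11 in unfasted mutants (2.37 ± 0.28, 5.16-fold, adjusted p = 0.000165). All mutant arrays also exceeded the unfasted heterozygous 9.58 to 10.68. Mki67, the proliferation marker, read 6.6 to 6.87 against 7.17, 7.75, 8.31 and 7.76 (1.05 ± 0.17, adjusted p = 0.00144). Mcm6, of the replicative helicase, read 7.05 to 7.24 against 8.11, 9.02, 8.68 and 7.96 (1.30 ± 0.17, adjusted p = 0.000317), and Top2a, a topoisomerase of dividing cells, was higher by 0.92 ± 0.13 (adjusted p = 0.000431). Birc5, Rrm2, Tyms and Bub1 were within the margin, Bub1 not without mutant replicate 1 and Rrm2 not without mutant replicates 3 or 4 or fasted heterozygous replicate 4.

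Among markers of cells other than hepatocytes, mainly those of endothelial and stellate cells were higher, and their part in the results was not tested. Endothelial markers were higher in 10 of 15 (median difference 0.37, with 6 higher without fasted heterozygous replicate 4 and 9 without mutant replicate 1), and their mean level was 9.27 to 9.47 on fasted heterozygous arrays and 9.68 to 9.87 on unfasted mutant arrays. Aqp1, a water channel, read 9.59 to 9.94 against 10.38 to 10.72 (0.80 ± 0.11, adjusted p = 0.000421), and Eng, a coreceptor for TGF-beta, was higher by 0.42 ± 0.08 (adjusted p = 0.00317). Stellate cell and fibroblast markers were higher in 10 of 17 (9 without mutant replicate 1, mean levels 8.23 to 8.37 and 8.65 to 8.79). Lrat, which stores retinol in stellate cells, read 8.98 to 9.38 against 10.89, 10.91, 10.68 and 9.97 (1.46 ± 0.25, adjusted p = 0.00179), Vim was higher by 0.69 ± 0.14 (adjusted p = 0.00608) and Pdgfrb by 0.57 ± 0.10 (adjusted p = 0.00171), while the collagen gene Col3a1 was within the margin at 0.24 ± 0.08 (adjusted p = 0.00291). Macrophage markers were undecided in 12 of 19 and higher in 3, with overlapping mean levels of 8.26 to 8.62 and 8.45 to 8.97. The higher count was 2, 1, 1 and 9 without mutant replicates 1, 2, 3 and 4, and 0 without fasted heterozygous replicate 4. Cd68 was higher by 0.79 ± 0.19 (adjusted p = 0.0156, and 0.052 without fasted heterozygous replicate 4). Neutrophil (1 higher of 12), lymphocyte (0 of 15), cholangiocyte (1 of 6), adipocyte (0 of 7) and erythroid (0 of 3) markers had few calls or none. The neutrophil count ran from 0 to 3 and the cholangiocyte count from 0 to 1 with an array left out.

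The circadian clock list held 3 higher genes and 1 lower of 19 (5.96% and 4.9% of all genes), with 6 within the margin and 9 undecided. Dbp, an output factor of the clock, read 8.01, 8.76, 7.88 and 8.50 in fasted heterozygotes and 9.44, 8.95, 10.33 and 9.42 in unfasted mutants (1.25 ± 0.30, adjusted p = 0.0144). Per3 read 7.70 to 8.13 against 9.13, 9.04, 9.64 and 8.55 (1.23 ± 0.26, adjusted p = 0.00752). Per2 was higher by 0.71 ± 0.18 (adjusted p = 0.02, and up to 0.065 without mutant replicate 2 or fasted heterozygous replicate 4). Clock was lower by -0.51 ± 0.15 (adjusted p = 0.0355), a call that held only without mutant replicates 2 or 4 (otherwise up to 0.11). The labels give no hour of collection, so the time of day cannot be told apart from the groups.

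**Figure D5:**
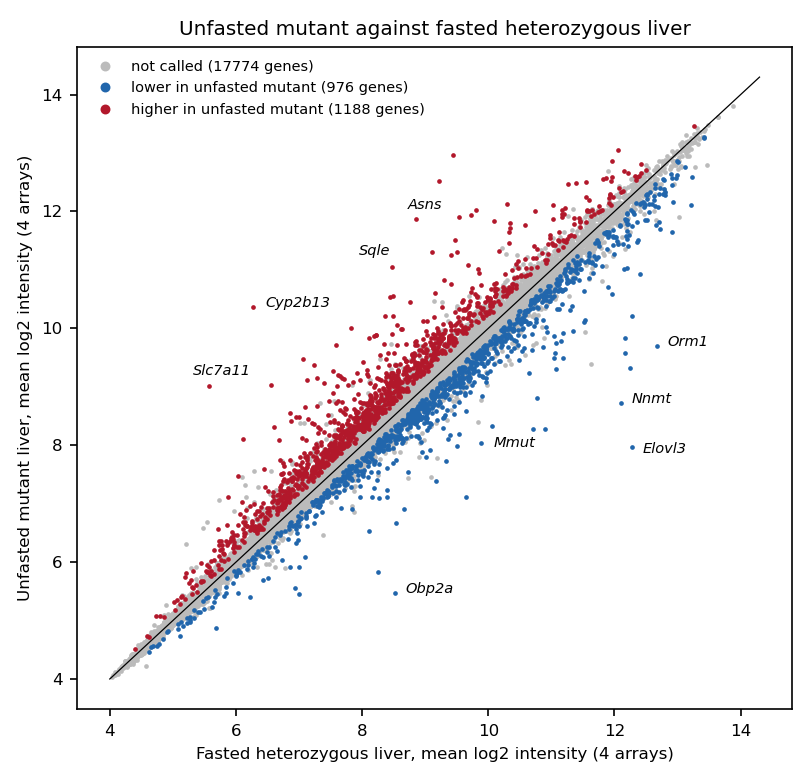
Mean log2 intensity of 19938 genes in fasted heterozygous liver (x axis) and unfasted mutant liver (y axis), 4 arrays each, with the line of equality. Called genes (1188 higher in red, 976 lower in blue) flank a grey band of 17774 genes without a call, and the named points are among those farthest from the line.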

How the data were processed

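The authors deposited 1 table of log2 expression values for 16 liver arrays, made with Affymetrix Expression Console and RMA (background correction, quantile normalization and summary per probe set), per the submitters' processing notes, from 300 ng of total RNA per array, per the labels' protocols. Versions, build and filters are not given in the sources used here, and the log2 scale was taken from the values (3.80 to 14.33). Of 35556 probe sets, 21789 had 1 gene symbol in the platform annotation and were kept, 1621 had several and 12146 none. Symbols were updated by gene number through a RefSeq table (GRCm38.p6, 21698 matched), and of 999 genes with several probe sets the brightest was used, which gave 19938 genes with no filter on dim ones. Array medians were 7.33 to 7.40, correlations within the groups compared 0.9847 to 0.9964, and no pair of arrays was identical.

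The 4 group means were estimated together from the 16 arrays with limma 3.58.1 (R 4.3.3, eBayes with a trend), two-sided, with Benjamini-Hochberg adjustment over all genes and a threshold of 0.05. The margin was tested with a pair of one-sided moderated tests at 0.5 log2 units, adjusted in the same way. On simulated data for this comparison, 84% of genes changed by 0.5 and 99% of those changed by 1 were called, 0.04% of unchanged genes were called, and 97% of unchanged, 8% of genes changed by 0.5 and 0% of those changed by 1 fell within the margin. The simulated noise was normal, with 1 spread per gene for all groups and 100 genes changed by each size. The real mutant arrays varied more (median SD 0.107 against 0.072) and 1 carried acinar transcripts, so these rates may not hold for the real data. The number of arrays limits the precision. Standard errors and p-values rest on 1 moderated spread per gene, estimated from all 16 arrays and not only from the 8 compared. For Cyp4a10 the SD was 0.067 in fasted heterozygotes and 0.043 in unfasted mutants, but 0.387 in unfasted heterozygotes. Its SE of 0.13 draws on all groups. RMA values of dim genes are compressed, so their differences can be understated.

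The comparison, its 36 gene lists and the naming rule were chosen with earlier results of these data known. The rule names the 12 largest rises and 12 largest falls among called genes whose arrays lay apart, a fixed set (Mmut, Fgf21, Igf1, Igfbp1, Cpt1a, Pdk4, Ppargc1a, Pck1, G6pc, Srebf1, Fasn, Cyp7a1, Lepr, and further genes not analysed here), and up to 4 called and 4 matching members of a described list. Predicted genes were not named. Cpa1, Apoa1, Ttr, Trf, Vldlr, Atf4, Atf3, Chac1, Nupr1, Ddit3, Hspa5, Pck2 and Fabp1 were named after their values were seen, as were the genes plotted. Promoters came from RefSeq (GRCm38.p6). Same-numbered arrays of the 2 groups did not deviate together (correlations -0.03 to 0.11), so the numbers were not taken as pairs. The alternatives were a replicate block, only the 8 arrays, array weights, median-centring, a second quantile normalization, no trend, robust moderation, the mean over probe sets, brighter genes only, a threshold of 0.01, a minimum of 1 log2 unit, margins of 0.3 and 1, and each of the 8 arrays left out.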

Additional observations from a re-analysis of the deposited data

Results flagged for a closer look

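In groups of 4 arrays, 18 of 378 sets of values for the named genes held an array set off from its neighbour beyond the 95% limit of Dixon's gap test, which chance gives in about 1 of 20 groups. The 18 are near that share, so their number shows no excess, and no explanation was tested. Unfasted mutant replicate 4 stood off for Pigr at 11.67 (the others 9.02 to 9.41), Cpt1a at 11.80 (12.12 to 12.14), Cyp51 at 11.11 (11.36 to 11.38) and G0s2 at 9.90 (10.62 to 10.75). It was also the mutant array nearest to the fasted heterozygous mean in 13 of the 24 genes with the largest differences, against 7, 3 and 1 for mutant replicates 1, 2 and 3. Mutant replicate 1 stood off for Cyp2b9 at 12.78 (13.01 to 13.04) and Gstm1 at 12.69 (12.65), mutant replicate 2 for Eng at 10.38 (10.47 to 10.49), and mutant replicate 3 for Shmt2 at 10.54 (10.78 to 10.80) and Alb at 13.50 (13.64 to 13.66).

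Fasted heterozygous replicate 1 stood off for Cyp8b1 at 11.79 (12.36 to 12.43), Lss at 8.20 (8.50 to 8.54), Hmox1 at 8.91 (8.39 to 8.47), Lum at 6.80 (7.18 to 7.26) and Foxo1 at 9.84 (9.94 to 9.95). Fasted heterozygous replicate 3 stood off for Cyp2a22 at 7.72 (9.53 to 9.90), Mlxipl at 10.56 (10.94 to 10.95) and Khk at 11.27 (11.71 to 11.77), and replicate 2 for Derl3 at 7.87 (8.12 to 8.17).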

How the results depend on the processing

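The counts of genes called higher, called lower, called in all and within the margin stayed within 1.5 times of 1188, 976, 2164 and 17489 under the replicate block (1280, 1016, 2296 and 17606), only the 8 arrays, array weights, both rescalings, no trend, robust moderation and the mean over probe sets. At an adjusted p under 0.01 there were 517 higher, 333 lower and 850 called, and with a minimum of 1 log2 unit 102, 62 and 164. Among the brighter genes alone 7936 of 9969 were within the margin, a share of 79.6% against 87.7% of all genes. With 1 array left out at a time the counts ranged from 806 to 1306 higher, 595 to 985 lower, 1401 to 2279 called and 17165 to 17425 within the margin. No called gene that is named changed direction. Cyp7a1, which was undecided, turned from 0.084 to -0.078 with array weights and lay between -0.2 and 0.378 with an array left out. Its values below 0 were -0.089 and -0.119 without mutant replicates 3 and 4 and -0.2 and -0.002 without fasted heterozygous replicates 1 and 2. Pdk4 passed the call under the replicate block, only the 8 arrays, array weights and brighter genes only. It also passed with 1 array left out (adjusted p = 0.027), but not without mutant replicate 1 (0.161). Arrays carry no detection calls here, so a match of a dim gene may be a match of background. The fast of 12 hours against none, the genotype and the hour of collection cannot be separated in this comparison.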
